A study of Homo sapiens with 40 samples.

Results

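Collagens are the triple-helical proteins of the extracellular matrix, and each is assembled from chains encoded by separate genes. The 42 collagen chain genes described here are the protein-coding autosomal genes whose symbol is COL, digits, A and digits and nothing more. They belong to a background of 19451 protein-coding genes, each 1 kb or longer. The quantity given for each gene is the percent of its annotated length that lay inside H3K27me3 peaks, called its coverage below.

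The study profiled H3K27me3 by CUT&Tag, in which an antibody directs a transposase to a chromatin mark, in KMS-11 cells. KMS-11 is a human multiple myeloma cell line with the t(4;14) translocation, which places the gene NSD2 under strong enhancers. The peak lists of 30 libraries, 15 groups of 2, were used, and each library was made from 50000 nuclei with 13 PCR cycles. The question was how H3K27me3 is redistributed when NSD2 is lost. In the knockout (KO) experiment the groups were the wild-type parental line, NSD2 KO clone 3 and NSD2 KO clone 12, all untreated. The dTAG experiment used a wild-type parental line, the one used for dTAG engineering, and NSD2dTAG knock-in clones 8 and 11, each at 0, 7, 14 and 21 days of dTAGV-1. dTAGV-1 is a compound that brings a dTAG-fused protein to a ubiquitin ligase for degradation. It was given at 100 nM to the NSD2dTAG cells, and the dose for the parental line is not stated in the labels. Each design therefore rests on 2 clones, and the untreated NSD2dTAG clones carry the knock-in as the treated ones do. The labels call the clone replicates biological, and for the parental libraries they mention no separate cultures. A p-value here therefore weighs a difference only against library-to-library spread, part of which may be technical. The peak lists carry no measure of NSD2 itself, and its loss was not checked here.

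H3K27me3 is written by Polycomb repressive complex 2 and is found on silent genes, often starting at promoters rich in CG dinucleotides. NSD2 is a methyltransferase that makes H3K36me2, a mark whose presence on a histone tail hinders Polycomb repressive complex 2. Most collagens are products of fibroblasts, cartilage cells and epithelia and are not known as products of plasma cells. Fibrillar collagens form the cross-striated fibres of skin, bone and cartilage, basement membrane collagens form sheet-like networks, and the other classes decorate fibrils, anchor epithelia or span the cell membrane.

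The bases just before the start of 4 collagen genes are shown because the same change in gene coverage went with and without listed peaks at the promoter. COL25A1 and COL21A1 both gained coverage in KO and in dTAGV-1-treated clones, the first with a peak at its promoter in all 30 libraries and the second with a promoter peak in none of the parental or untreated libraries. COL17A1 gained coverage with hardly any promoter peak, and COL7A1 was heavily covered in all 30 libraries with none. The sequences are from RefSeq on GRCh38.p14, run 5′ to 3′ on the minus strand, on which all 4 genes lie, and hold the 250 bases before the annotated start. They span chr4:109302659-109302908 for COL25A1, chr6:56394129-56394378 for COL21A1, chr10:104085881-104086130 for COL17A1 and chr3:48595330-48595579 for COL7A1. Capitals mark CG, a motif that reads the same on both strands.
COL25A1: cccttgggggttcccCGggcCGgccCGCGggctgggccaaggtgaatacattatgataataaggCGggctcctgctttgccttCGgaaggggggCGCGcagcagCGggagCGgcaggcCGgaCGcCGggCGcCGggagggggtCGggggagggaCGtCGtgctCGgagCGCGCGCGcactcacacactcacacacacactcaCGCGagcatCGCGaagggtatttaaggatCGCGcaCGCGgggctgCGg
COL21A1: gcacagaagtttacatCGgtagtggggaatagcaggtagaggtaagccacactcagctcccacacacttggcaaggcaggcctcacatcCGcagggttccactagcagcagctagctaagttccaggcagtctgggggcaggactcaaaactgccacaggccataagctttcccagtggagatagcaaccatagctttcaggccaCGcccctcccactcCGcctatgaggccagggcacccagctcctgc
COL17A1: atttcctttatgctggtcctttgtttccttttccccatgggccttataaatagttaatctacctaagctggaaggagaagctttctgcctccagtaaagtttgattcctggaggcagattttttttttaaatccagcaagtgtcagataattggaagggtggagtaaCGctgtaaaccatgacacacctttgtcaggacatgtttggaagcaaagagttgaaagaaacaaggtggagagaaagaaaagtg
COL7A1: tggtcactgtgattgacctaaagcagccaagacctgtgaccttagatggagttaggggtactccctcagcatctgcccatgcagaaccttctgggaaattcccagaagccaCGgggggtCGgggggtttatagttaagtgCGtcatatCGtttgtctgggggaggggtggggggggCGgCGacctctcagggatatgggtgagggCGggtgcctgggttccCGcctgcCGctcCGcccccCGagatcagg
These 250 bases held 32 CG in COL25A1, 4 in COL21A1, 1 in COL17A1 and 11 in COL7A1. Over all 15412 protein-coding genes with an entry, 98.4% of the 300-base windows (250 before to 50 after the start) held at least 1 CG, and the median was 22.

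The 30 lists held 34740 to 205920 peaks and covered 36.1 to 168 Mb. Sequencing depth was not listed, and the background pileup solved from the lists, which stands for it, ran from 0.922 to 3.26 fragments per position. Both moved with the groups. Called length was 1.94 times as high in the KO clones as in their parental line and 2.37 times as high in the dTAG clones at day 21 as at day 0, with pileup ratios of 1.22 and 1.62. In the dTAG parental line the day 21 ratios were 1.35 for called length and 1.42 for pileup. Every comparison was therefore also computed with coverage scaled by called length and with pileup as a covariate, and how much of each difference comes from depth was not tested otherwise. RNA was not measured, so the plasma cell label was set only against coverage: of 6 plasma cell genes, PRDM1 was covered at 0% to 1.48%, TNFRSF17, the gene of BCMA, at 0% to 2.66%, IRF4 at 0% to 7.39%, SDC1 at 1.68% to 12.0%, MZB1 at 0% to 16.9% and XBP1 at 0% to 35.4%.

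Collagen genes ranged from widely covered to little or no coverage before NSD2 loss. Some lay between, such as COL15A1, with a mean of 8.83% in the parental and untreated libraries. Covered genes also varied between libraries, as COL11A2 did from 3.26% to 45.1%. Mean coverage over the 30 libraries ran from 0% for COL10A1 to 49.1% for COL1A1. The test took the 33 collagen genes with a mean between 1% and 99%. The other 9, COL24A1, COL11A1, COL3A1, COL4A4, COL4A3, COL19A1, COL9A1, COL10A1 and COL22A1, had means below 1% and are given as values. Members of a single structural class lay at both ends, as the heat map by class shows.

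**Figure D1:**
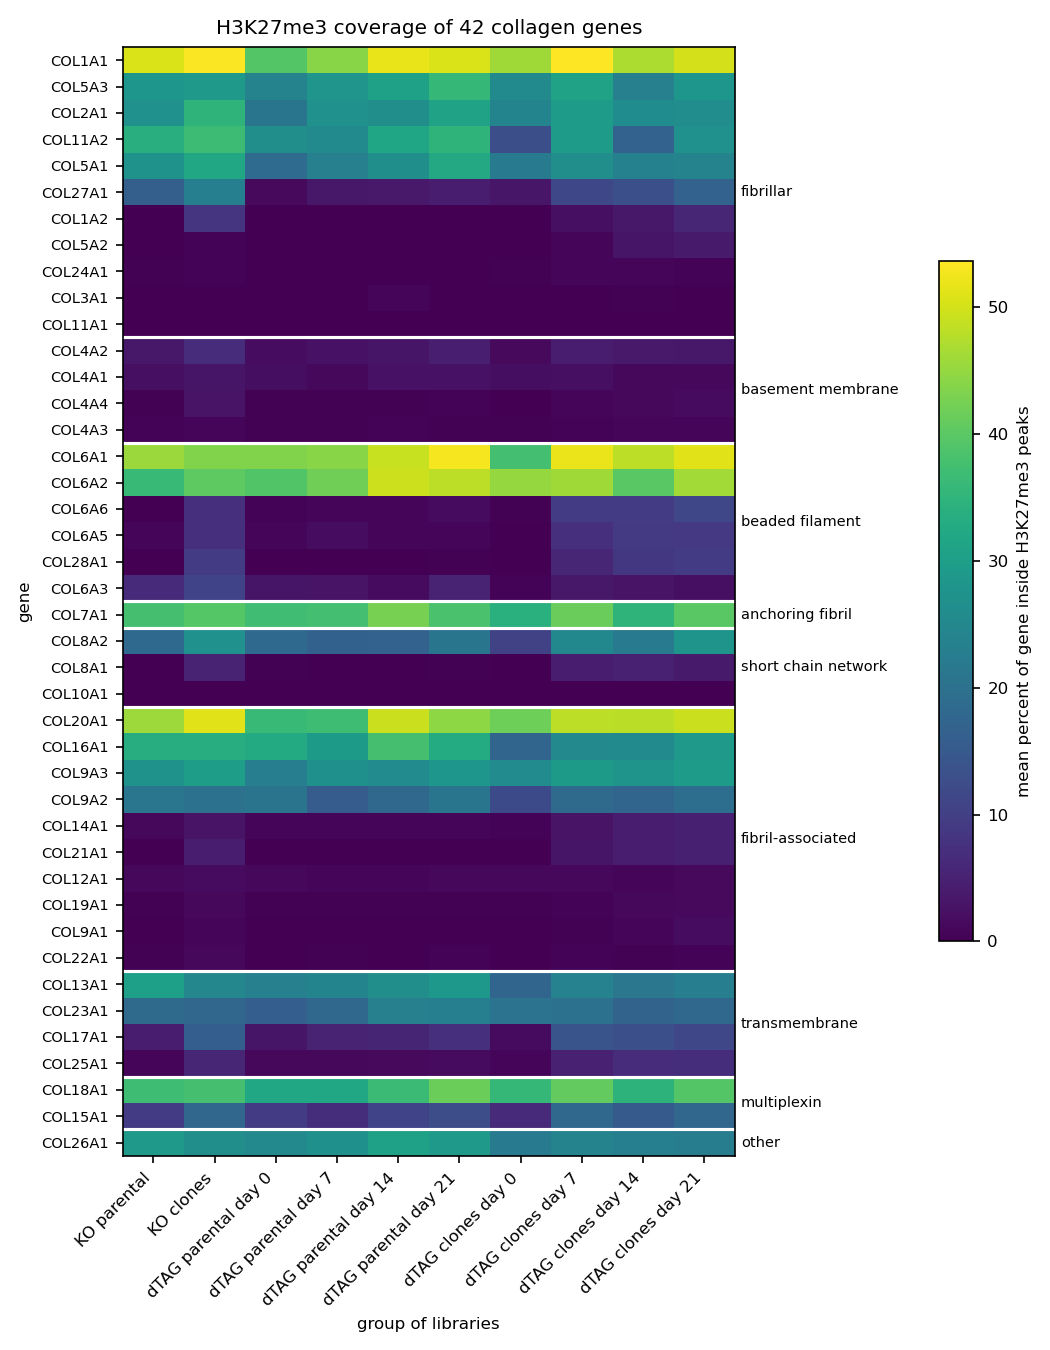
Mean percent of each of the 42 collagen genes (rows, by structural class) inside H3K27me3 peaks in 10 groups of libraries (columns, n = 2 for each parental group and n = 4 for each pair of clones), as colour. COL1A1, COL6A1, COL6A2, COL20A1 and COL7A1 were covered at more than 30% in every group, and genes near 0% in the parental lines, such as COL28A1 and COL6A6, were above 5% in the KO clones and in the treated dTAG clones.

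In the KO clones, 8 of the 33 tested collagen genes gained coverage and none lost it, by limma at an adjusted p under 0.05. That is 24.2%, against 18% of all 13977 genes tested (0.744% lost). Of the 8, 6 had a mean under 1% in the parental and untreated libraries and passed the filter only through KO and treated libraries, so the share is a description. Without the filter 11 of 41 gained and none lost, against 17.6% and 0.709% of all genes. The 8 were COL17A1, COL28A1, COL1A2, COL6A6, COL6A5, COL8A1, COL25A1 and COL21A1. With coverage scaled by called length, 7 gained and 15 lost of 32 tested, against 10.9% gained and 13.5% lost among all genes, and with the pileup covariate 9 gained and 2 lost (17.1% and 2.95%). All 7 that gained after scaling were among the 8. With only the KO experiment in the fit, 2 of the 8 remained, COL21A1 and COL28A1. In that fit 6.06% of the 33 collagen genes gained, beside 872 of all 14360 genes tested, so the collagen share was near the background. Differences in means over all 42 genes were positive for 35, negative for 5 and 0 for 2 on the unscaled percent, with a median of 2.13 percentage points beside 0.569 over all 19451 genes. Of all 19451 genes, 66.5% had a positive difference.

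In the dTAG clones, 11 collagen genes gained coverage at day 7 (background 21.1%), 11 at day 14 (22%) and 13 at day 21 (26.5%), and none lost it (0.243%, 0.63% and 0.494%). The 13 of day 21 are 39.4% of the 33 tested, and 8 of them passed the filter only through KO and treated libraries. Without the filter 17 of 41 gained at day 21 and none lost (background 22.1% and 0.423%). Scaled by called length, 8 rose and 17 fell by day 7 (background 14.2% and 29.4%). By day 14 the scaled counts were 9 and 17 (15.6% and 32.4%), and by day 21 they were 10 and 17 (15.6% and 32%). With the pileup covariate, 8 rose and 1 fell by day 7 (11.8% and 2.05%), 11 rose and 6 fell by day 14 (16.3% and 5.38%), and 10 rose and 6 fell by day 21 (16.1% and 4.64%). The 3 time points share the day 0 libraries, and 10 genes passed at all 3. All 8 genes gained in the KO clones were among the 13 of day 21, which is 61.5% of the 13, and the 5 others were COL8A2, COL27A1, COL15A1, COL14A1 and COL5A2. Neither overlap was counted over all genes, and the comparisons share a filter, so both overlaps are descriptions only.

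In the dTAG parental line, which carries no dTAG-fused NSD2, no collagen gene passed at day 7, 14 or 21, by limma, and none was at an unadjusted p under 0.05. The background there was 0%, 0% and 0.0143% gained, with 2 genes called in all. At an unadjusted p under 0.05 the background was 292, 349 and 536 of 13977 genes, so 0 of 33 collagen genes is near that share. Means at day 21 were nonetheless higher than at day 0 for 35 of the 42 collagen genes and lower for 2, with a median difference of 0.912 percentage points, and 66.8% of all 19451 genes were higher. The change of the clones over 21 days exceeded that of the parental line for 5 collagen genes and fell below it for none, against 1.93% and 0.0859% of all genes. These were COL6A6 (10.0 ± 2.22 percentage points, SE, adjusted p = 0.0297), COL28A1 (8.98 ± 2.09, adjusted p = 0.0366), COL25A1 (5.43 ± 1.25, adjusted p = 0.036), COL21A1 (4.57 ± 0.74, adjusted p = 0.00934) and COL5A2 (3.80 ± 0.578, adjusted p = 0.00925). Of these, COL6A6, COL28A1, COL21A1 and COL5A2 had means of 0.0429% to 0.665% in the parental and untreated libraries. They passed the filter only through KO and treated libraries, so the count is a description. Without the filter 5 of 41 were above and 0 below, beside 218 and 14 of 18205 genes. Scaling by called length gave 4 above and 7 below (background 4.79% and 5.71%), and the pileup covariate 6 above and 1 below (4.26% and 0.723%). With gaps of up to 3 kb joined, and with all lists shortened to equal length, none of the 5 calls was made. The call held for COL5A2 in each leave-one-out fit that kept it above the 1% mean, was lost for COL21A1 without dTAG parental day 0 replicate 1 (adjusted p = 0.0618), and was lost for COL25A1, COL28A1 and COL6A6 without any 1 of 10 of the 12 libraries, the exceptions being the second day 21 library of each clone. For COL8A2 the difference was 14.9 ± 8.21 percentage points (adjusted p = 0.401) and for COL6A5 8.49 ± 2.46 (adjusted p = 0.0808).

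Fibrillar collagens held the most covered gene of the family beside some with almost no peaks. Of 11 fibrillar genes, 8 were tested, 1 gained coverage in the KO clones and 3 at day 21. COL1A1 and COL1A2 encode the chains of type I collagen, which assembles from both, and they stood at opposite ends. COL1A1 (chromosome 17, 50184101 to 50201631) was covered at 34.1% to 66.9% across the 30 libraries, with 53.9% and 47.5% in KO clone 3, 58.8% and 52.5% in KO clone 12, and 66.9% and 34.1% in the KO parental line. The KO libraries lay between the 2 parental ones, and the difference was 2.72 ± 8.00 percentage points (SE, adjusted p = 0.904). At day 21 its difference from day 0 was 4.08 ± 6.53 (adjusted p = 0.723) and, after scaling by called length, -47.7 ± 8.80 (adjusted p = 0.000408).

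COL1A2 (chromosome 7, 94394895 to 94431227) had no peak in any of the 14 libraries of parental lines and untreated clones. KO clone 3 had 10.2% and 11.0%, and KO clone 12 had 3.48% and 8.72%. At day 21 clone 8 had 9.03% and 4.19% and clone 11 had 8.02% and 2.11%. All 8 libraries lay above all controls, while at day 14 the second library of each clone was at 0%. The difference was 8.35 ± 2.08 percentage points in the KO clones (adjusted p = 0.00822) and 5.83 ± 1.70 at day 21 (adjusted p = 0.0157). Groups at 0% add no spread to the fit, so such p-values can be too small. The KO call was lost without either KO parental library (adjusted p = 0.0621 and 0.0742), and the day 21 call without clone 8 replicate 1 or clone 11 replicate 1 of that day (adjusted p = 0.0938 and 0.104).

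COL5A2, a minor chain of the fibrils that type I collagen forms, changed late in the dTAG clones. Its coverage was 0.0181% to 0.0640% in the 4 day 0 libraries, 0.421% to 1.14% at day 7, 1.79% to 3.80% at day 14 and 2.49% to 4.79% at day 21. Days 0, 7 and 14 did not overlap, and days 14 and 21 did. The day 21 difference was 3.83 ± 0.334 percentage points (adjusted p = 2.24e-06), and that of day 7 was 0.697 ± 0.334 (adjusted p = 0.158). KO clone 3 had 1.01% and 0.519% and KO clone 12 had 0.569% and 0.301%, against 0.0181% and 0.0648% in their parental line. That difference of 0.558 ± 0.409 did not pass (adjusted p = 0.439).

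COL27A1 differed between the 2 parental lines. It encodes a fibrillar chain of cartilage, and its coverage was 20.7% and 11.6% in the KO parental line against 0.461% to 5.99% in the 8 libraries of the dTAG parental line. At day 0 the dTAG clones had 4.46%, 1.19%, 3.74% and 3.28%, and at day 21 they had 21.9%, 16.8%, 18.8% and 9.80%. The day 21 difference was 13.7 ± 2.75 percentage points (adjusted p = 0.00128), and the KO difference of 7.08 ± 3.37 did not pass (adjusted p = 0.178). The 4 other tested fibrillar genes with broad coverage, COL2A1, COL5A1, COL5A3 and COL11A2, had means of 25.7% to 28.0% and were not called in any comparison on the unscaled percent. COL3A1 had a peak in 2 libraries only, COL11A1 in 1, and COL24A1 reached at most 0.894%.

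**Figure D2:**
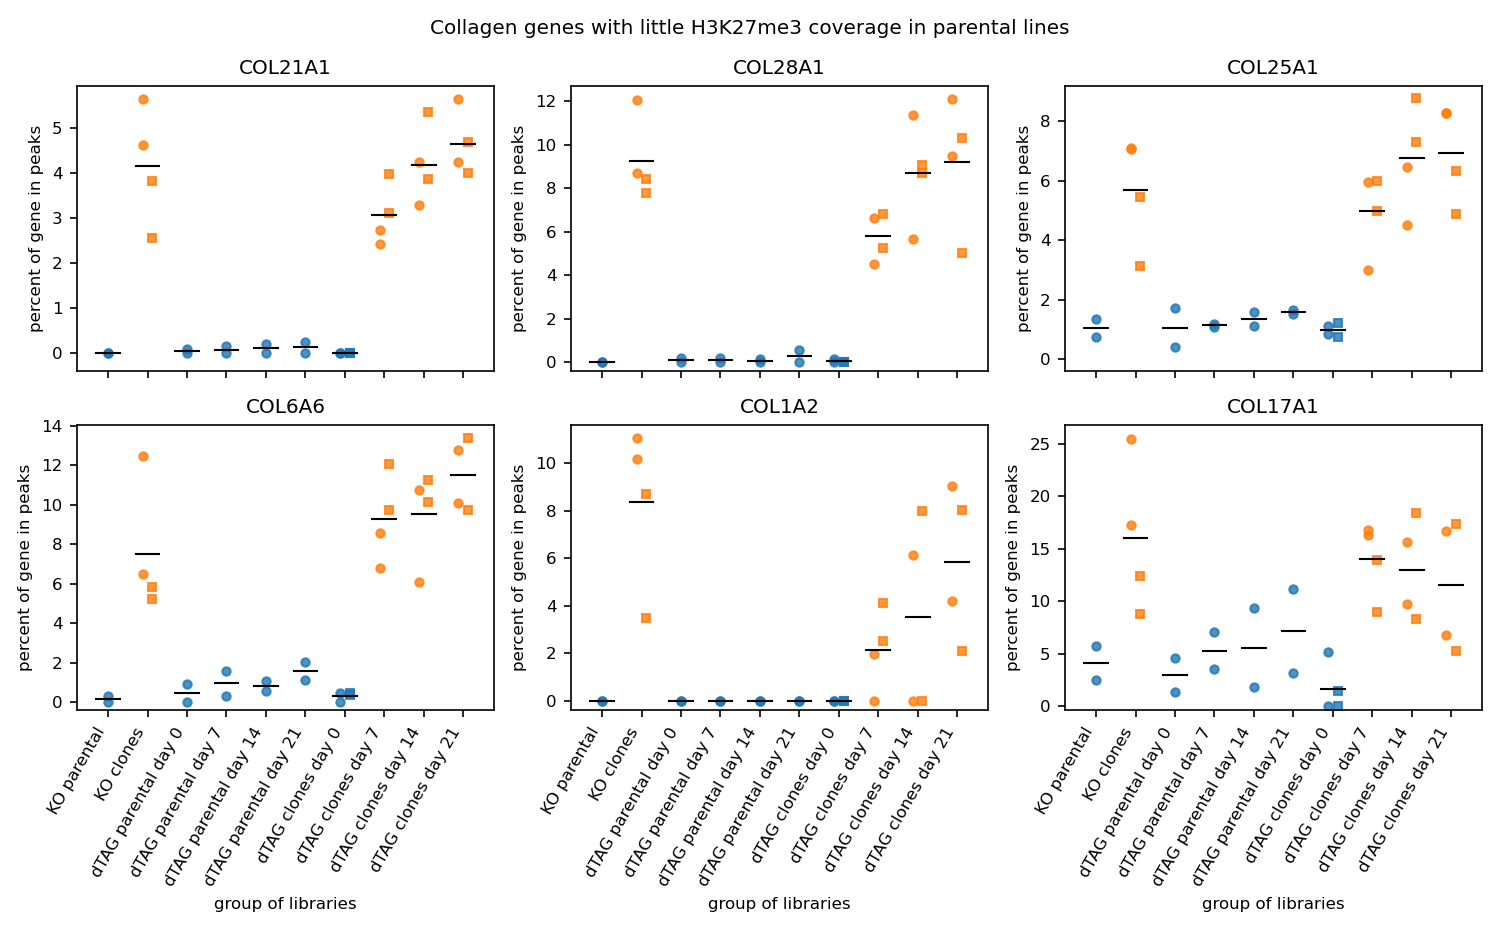
Percent of the gene inside H3K27me3 peaks in each library (points) for 6 collagen genes, by group (x axis), with the group mean as a line. Blue marks parental lines and untreated clones, orange KO clones and treated dTAG clones; circles are parental lines, KO clone 3 and dTAG clone 8, and squares are KO clone 12 and dTAG clone 11. COL21A1, COL28A1, COL25A1 and COL6A6 showed no overlap between blue and orange, COL1A2 had orange points at 0%, and COL17A1 overlapped.

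Beaded filament collagens, type VI and the related COL28A1, fell into the same contrast. COL6A1 and COL6A2 lie on the same stretch of chromosome 21 and encode chains of type VI collagen, the microfibril around many cells. COL6A1 was covered at 34.9% to 56.2% in the KO parental line, 32.7% to 50.8% in the KO clones, 18.1% to 59.6% at day 0 and 36.4% to 62.3% at day 21. COL6A2 had 29.2% to 58.3% at day 0 and 39.4% to 49.1% at day 21. Groups overlapped for both, and neither was called (day 21 difference 13.7 ± 12.3 percentage points, adjusted p = 0.473, and 0.999 ± 8.43, adjusted p = 0.964). After scaling both were called lost at day 21, with differences of -26.0 ± 8.00 for COL6A1 (adjusted p = 0.0134) and -45.8 ± 5.04 for COL6A2 (adjusted p = 3.89e-06). By limma, COL6A2 was also called lost at day 21 with the pileup covariate (-15.1, adjusted p = 0.0266) and with lists shortened to equal length (-24.8, adjusted p = 0.0280). It was not called with gaps of up to 3 kb joined (adjusted p = 0.471). COL6A1 was called neither with the pileup covariate nor at equal length (adjusted p = 0.345 and 0.206).

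COL6A5 and COL6A6, alternative chains of type VI collagen, lie close together on chromosome 3 (130345672 to 130484846 and 130516720 to 130677042). COL6A6 had 0.343% and 0% in the KO parental line. KO clone 3 had 12.5% and 6.51% and KO clone 12 had 5.86% and 5.24%. In the dTAG clones COL6A6 rose from 0% to 0.460% at day 0 to 9.74% to 13.4% at day 21. The 8 dTAG parental libraries had 0% to 2.02%, below every KO and treated library. The difference was 7.35 ± 1.57 percentage points in the KO clones (adjusted p = 0.00292) and 11.2 ± 1.28 at day 21 (adjusted p = 1.89e-05). COL6A5 had 1.60% and 0.395% in the KO parental line, 9.17% and 11.2% in KO clone 3, and 6.67% and 2.34% in KO clone 12. Its differences were 6.34 ± 1.74 (adjusted p = 0.0152) and, at day 21, 8.65 ± 1.42 (adjusted p = 0.000263). The COL6A5 KO call was lost without KO parental replicate 1 or 2 or KO clone 12 replicate 1 (adjusted p = 0.0627, 0.150 and 0.0620). COL6A3, the chain that type VI collagen needs beside COL6A1 and COL6A2, had 4.10% to 8.84% in the KO parental line and 8.22% to 15.6% in the KO clones (difference 4.36 ± 1.78, adjusted p = 0.107).

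COL28A1 (chromosome 7, 7338194 to 7543870) went from no peak to many. Neither KO parental library had a peak in the gene, and the 4 KO libraries had 23 to 37. Coverage was 12.1% and 8.71% in KO clone 3 and 8.40% and 7.76% in KO clone 12. The 4 day 0 libraries had 0 or 1 peak and 0% to 0.172%, and the 4 day 21 libraries had 15 to 31 peaks and 5.01% to 12.1%. The difference was 9.23 ± 1.48 percentage points in the KO clones (adjusted p = 0.000337) and 9.18 ± 1.21 at day 21 (adjusted p = 4.84e-05), and no library left out changed either call. In the dTAG parental line coverage stayed at 0% to 0.584%.

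Among fibril-associated collagens, which sit on the surface of fibrils or link them to other matrix, COL21A1 separated the groups without overlap. It had no peak in the KO parental line or in any day 0 library of the dTAG clones, and 0% to 0.243% in the dTAG parental line. KO clone 3 had 5.64% and 4.60% and KO clone 12 had 3.83% and 2.54%. Clones 8 and 11 had 2.42% to 3.97% at day 7, 3.29% to 5.35% at day 14 and 4.00% to 5.63% at day 21. The difference was 4.15 ± 0.523 percentage points in the KO clones (adjusted p = 5.10e-05) and 4.64 ± 0.427 at day 21 (adjusted p = 3.55e-06). COL14A1 had 1.18% and 1.02% in the KO parental line and 1.99% to 3.69% in the KO clones, a difference of 1.83 ± 0.897 (adjusted p = 0.193). At day 21 it had 3.35% to 5.73% against 0.318% to 0.820% at day 0, and the difference of 4.14 ± 0.732 passed (adjusted p = 0.000486).

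COL20A1 was the most covered fibril-associated gene, at 23.1% to 57.3% over the 30 libraries. Its differences of 5.43 ± 8.12 percentage points in the KO clones and 7.57 ± 6.63 at day 21 did not pass (adjusted p = 0.771 and 0.460), and both were negative after scaling (-24.8 and -40.0). COL16A1, COL9A2 and COL9A3 had means of 28.5%, 18.1% and 27.8% and were not called on the unscaled percent. COL12A1 kept to 0.370% to 2.11% in all 30 libraries. COL9A1, COL19A1 and COL22A1 had means under 1%.

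**Figure D3:**
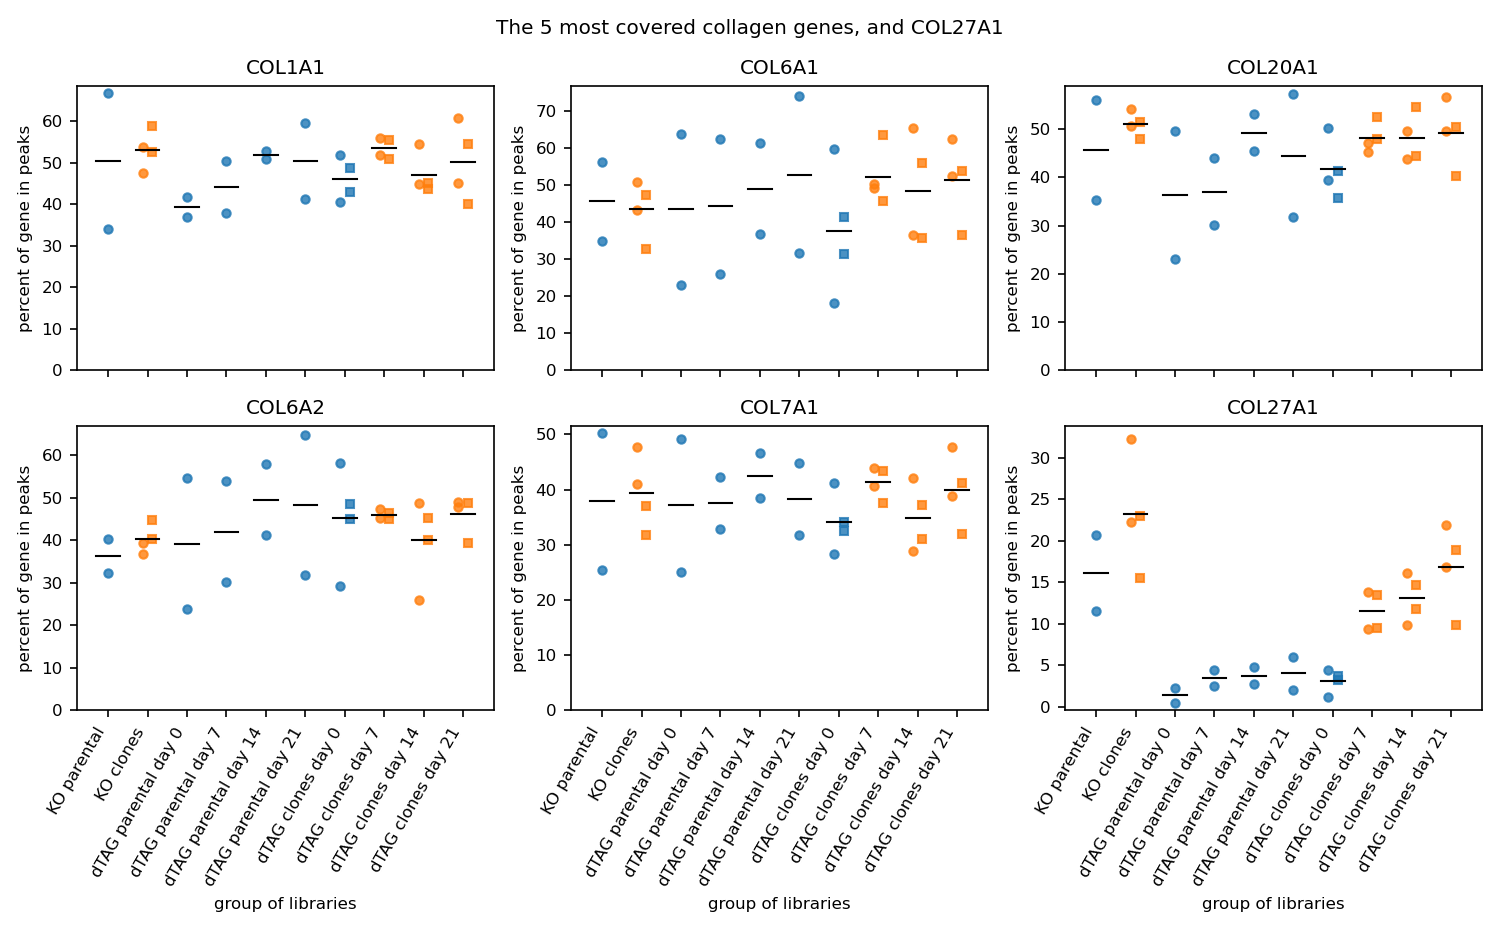
Percent of the gene inside H3K27me3 peaks in each library (points) for the 5 most covered collagen genes and COL27A1, by group (x axis), with the group mean as a line and marks as in the plot of the 6 gained genes. COL1A1, COL6A1, COL20A1, COL6A2 and COL7A1 showed overlapping blue and orange points, and COL27A1 was higher in the KO parental line (20.7% and 11.6%) than in the dTAG parental line (0.461% to 5.99%).

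Transmembrane collagens span the cell membrane with a collagenous outer part. COL25A1, known from amyloid plaques and from the innervation of muscle, is 494 kb long and was covered thinly before NSD2 loss. It had 1.35% and 0.733% in the KO parental line, 7.09% and 7.05% in KO clone 3 and 5.45% and 3.14% in KO clone 12. The 4 day 0 libraries had 0.726% to 1.20%, the 4 day 21 libraries 4.86% to 8.28%, and the 8 dTAG parental libraries 0.393% to 1.71%. No KO or treated library overlapped these controls. The difference was 4.64 ± 0.887 percentage points in the KO clones (adjusted p = 0.00125) and 5.96 ± 0.724 at day 21 (adjusted p = 2.63e-05). It came with more peaks rather than with a few long ones: 5 to 9 in the KO parental line against 25 to 57 in the KO clones, and 5 to 9 at day 0 against 31 to 58 at day 21. The longest peak in the gene was 1510 to 1824 bp in the KO parental libraries and 1711 to 3176 bp in the KO clones.

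COL17A1, a component of the hemidesmosomes that hold epidermis to its basement membrane, varied widely between libraries. It had 5.69% and 2.52% in the KO parental line, 25.5% and 17.3% in KO clone 3 and 12.4% and 8.78% in KO clone 12. Clone 8 had 5.19% and 0% at day 0 and 16.7% and 6.75% at day 21, and clone 11 had 1.40% and 0% against 17.3% and 5.24%. The dTAG parental line reached 11.2% at day 21, above some treated libraries. The difference was 11.9 ± 3.95 percentage points in the KO clones (adjusted p = 0.0436), lost without any of 5 of the 6 libraries (KO clone 3 replicate 2 the exception; adjusted p = 0.0503 to 0.287) and after scaling, and 9.85 ± 3.23 at day 21 (adjusted p = 0.0305), lost without 5 of the 8 (clone 8 day 0 replicate 2 and day 21 replicate 1, clone 11 day 0 replicates 1 and 2 and day 21 replicate 1; adjusted p = 0.0608 to 0.181). COL13A1 and COL23A1 had means of 23.5% and 19.1% and no unscaled call, and with the pileup covariate both were called lost in the KO clones (differences of -10.4 and -6.33).

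The 2 tested short chain collagens, COL8A1 and COL8A2, encode the chains of type VIII collagen, found under the vascular and corneal endothelium. COL8A1 had 0.155% and 0% in the KO parental line, 9.59% and 5.84% in KO clone 3 and 3.91% and 2.18% in KO clone 12. Day 0 libraries had 0% to 0.149% and day 21 libraries 3.05% to 5.95%. Its differences were 5.30 ± 1.00 percentage points in the KO clones (adjusted p = 0.00115) and 3.77 ± 0.816 at day 21 (adjusted p = 0.00228). COL8A2 started higher, at 22.2% and 14.2% in the KO parental line and 6.95% to 13.7% at day 0. It had 12.0% to 36.3% at day 21, overlapping day 0. Its day 21 difference of 17.5 ± 4.74 passed (adjusted p = 0.0103), was lost without clone 11 day 21 replicate 1 (adjusted p = 0.0758), and turned into a loss, -6.78 (adjusted p = 0.0335), when all lists were shortened to equal length. COL10A1, the type X chain of growth plate cartilage, had no peak in any of the 30 libraries.

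The multiplexin COL15A1, whose protein lies at basement membranes, had 11.7% and 7.33% in the KO parental line and 14.8% to 20.1% in the KO clones, without overlap (difference 8.25 ± 3.30 percentage points, adjusted p = 0.0983). At day 21 it had 12.4% to 20.8% against 2.97% to 11.4% at day 0, and that difference of 11.3 ± 2.70 passed (adjusted p = 0.00442). The dTAG parental line reached 16.3% at day 21, above some treated libraries. The day 21 change of the clones beyond that line was 7.95 ± 4.67 and did not pass (limma adjusted p = 0.437). COL18A1, the other multiplexin and the source of endostatin, had a mean of 37.0% and no unscaled call. COL7A1, whose protein forms the anchoring fibrils of skin, was covered at 25.1% to 50.3% over the 30 libraries, with differences of 1.48 ± 7.49 in the KO clones and 5.86 ± 6.11 at day 21 (adjusted p = 0.952 and 0.550). Basement membrane genes had low means, as with 1.97% for COL4A1 and 3.59% for COL4A2. COL4A1 and COL4A2 reached at most 5.08% and 9.87%, and neither had an unscaled call. COL4A3 and COL4A4 reached at most 1.89% and 3.50%. COL26A1 had a mean of 25.1% and no unscaled call.

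KO clone 3 showed larger differences than KO clone 12 for all 8 genes gained in the KO clones. For COL17A1 they were 17.3 and 6.49 percentage points, for COL8A1 7.64 and 2.97, for COL6A5 9.17 and 3.51, and for COL28A1 10.4 and 8.08. The lists of KO clone 3 were also longer (168 and 137 Mb) than those of KO clone 12 (123 and 94.0 Mb), and the part of called length in the clone difference was not tested. At day 21 the difference was larger in clone 8 than in clone 11 for 11 of the 13 gained genes and smaller for COL14A1 and COL17A1. It was 23.9 and 11.0 for COL8A2, 16.5 and 10.8 for COL27A1, 10.7 and 7.65 for COL28A1, 4.94 and 4.35 for COL21A1, 11.2 and 11.1 for COL6A6, and 3.97 and 4.31 for COL14A1. The day 21 lists covered 153 and 111 Mb in clone 8 and 134 and 83.4 Mb in clone 11, and the part of called length was again not tested. Neither clone comparison was counted over all genes, so both counts are descriptions.

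By level before NSD2 loss, 17 of the 42 genes had a mean under 1% in the 14 libraries of parental lines and untreated clones. Of these, 8 gained at day 21 and the other 9 did not pass the filter. The filter removes a low gene that stays low, so levels of called and uncalled tested genes are not compared. The 13 genes gained at day 21 had means of 0% to 15.9% in those 14 libraries (median 0.778%), and the 9 untested genes 0% to 0.360% (median 0.150%). The median length was 160 kb for the 13, 197 kb for the 9, 133 kb for all 42 and 25.6 kb over all 19451 genes. Scaling by called length lowers the longer lists by construction, by more percentage points at higher coverage. With it, all 5 of the most covered genes were called lost at day 21, beside 32% of all genes tested. These are descriptions, since a gene already covered at a high percent and a gene at 0% do not have the same room to change.

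**Figure D4:**
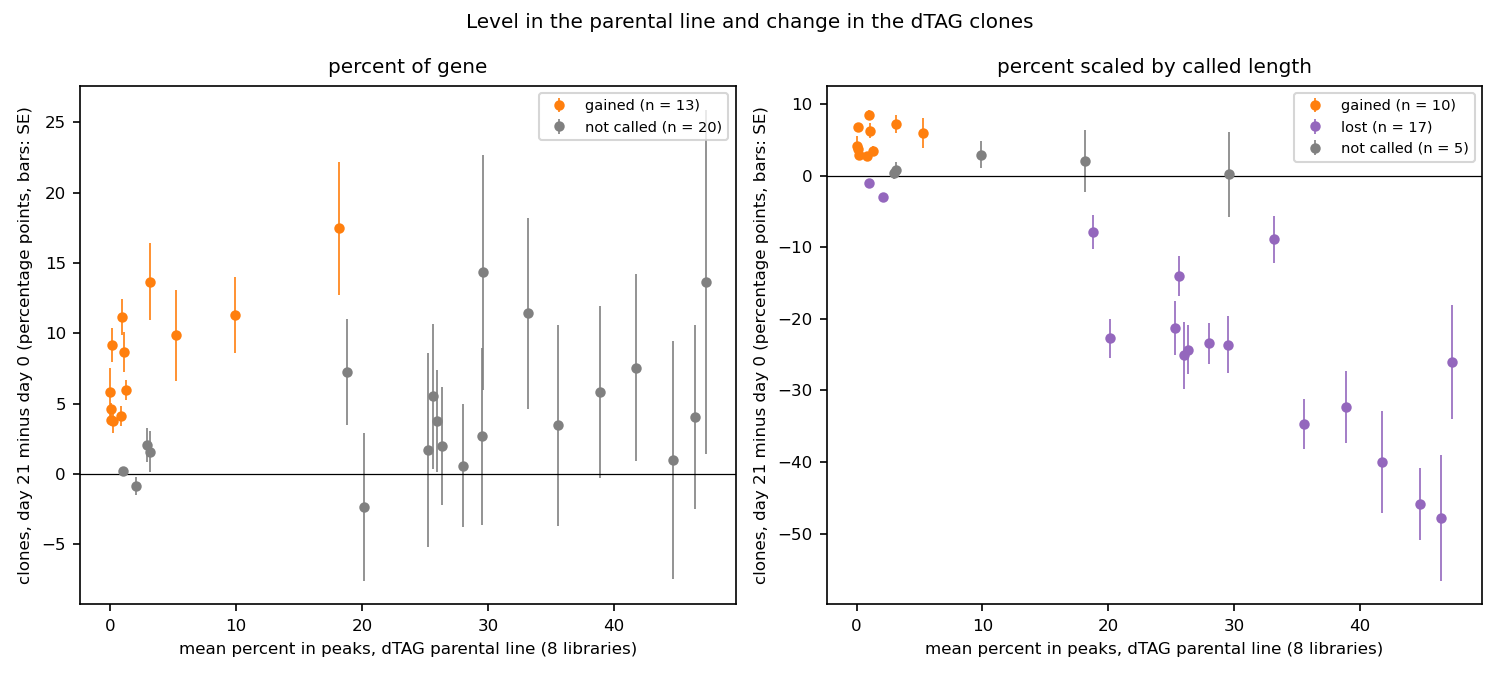
Difference between day 21 and day 0 of the dTAG clones in percentage points (y axis, bars are SE) against the mean percent of the gene in the 8 libraries of the dTAG parental line (x axis), 1 point per tested collagen gene, coloured by the limma call. On the unscaled percent (left) 13 genes gained and 20 were not called. Scaled by called length (right) 10 gained, 17 lost and 5 were not called. The losses are larger at higher coverage by construction, since scaling lowers the longer day 21 lists in proportion to coverage.

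Promoter windows were at hand for 30 of the 42 collagen genes, each the RefSeq window nearest the annotated start. They held a median of 23 CG, and 33.3% of them overlapped a peak in at least 7 of the 14 parental or untreated libraries, against 61.0% of all 15412 windows. An overlap of 1 base counted, the lists reached down to a -log10 q of 1.00, and the IgG libraries of the series were not analysed. How much of either share is H3K27me3 rather than background signal was not tested, so a promoter peak here is only a listed peak. COL25A1, with 38 CG in its 300-base window, had a promoter peak in 14 of these 14 libraries and in 16 of the 16 KO and treated ones, so the gain lay in the gene body. COL21A1, with 4 CG, had one in 0 of 14 and in 11 of 16. COL17A1, with 1 CG, had one in 0 of 14 and 1 of 16. COL7A1 and COL5A3 had none in 30 libraries despite gene coverage of 38.2% and 28.0%. The reverse held for COL4A3 and COL4A4, which start next to each other: their windows had a peak in 13 of 14 and 16 of 16 libraries each, with mean gene coverage of 0.611% and 0.961%. COL19A1 was like them, with 12 of 14 and 16 of 16 and 0.689%. COL4A1 and COL4A2, which also start back to back, had none in 30 libraries with 45 CG in each window.

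Along the gene, the gained coverage was placed differently from gene to gene. In COL21A1 it fell in the first 5 of 10 equal segments counted from the transcription start: 14.4%, 7.82%, 10.0%, 7.37% and 1.94% of these segments were covered in the KO clones and 0% of each of the last 5. Day 21 gave 18.7% of the first segment and at most 0.366% of any of the last 5. COL28A1 was covered in all 10 segments at day 21, from 2.58% to 14.8%. COL25A1 kept a covered last segment in the KO parental line (6.63%) and at day 0 (5.23%), close to the 7.97% in the KO clones and 4.78% at day 21, and segments 2 to 4, at 0% in both controls, had 1.52% to 5.65% in the KO clones and 5.69% to 6.86% at day 21. In COL6A6 the first segment was covered at 1.72% in the KO parental line and 12.4% in the KO clones, and at 2.20% and 15.7% at days 0 and 21.

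**Figure D5:**
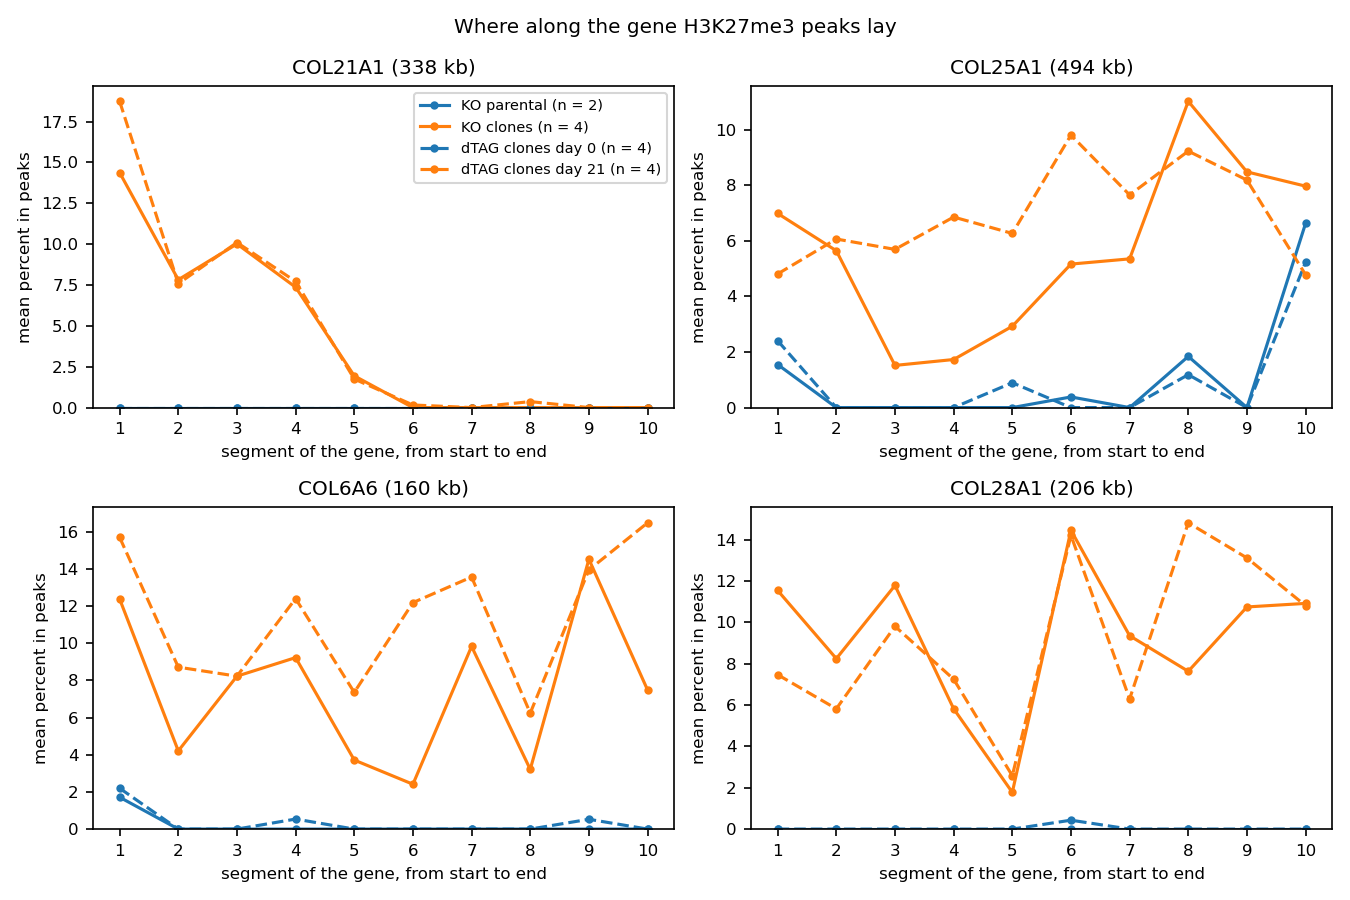
Mean percent inside H3K27me3 peaks of 10 equal segments of 4 collagen genes, from the start (1) to the end (10) of transcription (x axis), in the KO parental line and KO clones (solid) and in the dTAG clones at days 0 and 21 (dashed). COL21A1 was covered mainly in its first 5 segments and COL28A1 in all 10; both controls lie at or near 0% in COL21A1 and COL28A1, and COL25A1 had a covered last segment in every group.

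The other genes of collagen biosynthesis, from a list of 56 (modifying enzymes, secretion, propeptide removal, cross-linking, receptors, breakdown and fibril-binding proteoglycans), gave 44 tested genes. Of these, 10 gained and 0 lost in the KO clones, and 15 gained and 0 lost at day 21, which is beside 18% and 26.5% gained among all genes. P4HA2, a subunit of the enzyme that hydroxylates collagen prolines, went from 2.04% to 20.1% on average in the KO experiment (18.0 ± 2.06 percentage points, adjusted p = 2.08e-05). DDR2, a receptor tyrosine kinase for fibrillar collagen, went from 0.114% to 13.6% (13.5 ± 2.54, adjusted p = 0.00113) and from 0% to 12.3% between days 0 and 21. COLGALT2, which adds galactose to collagen hydroxylysine, went from 2.30% to 14.3% (12.0 ± 2.01, adjusted p = 0.000459). At day 21 the receptor subunit ITGA10 rose from 11.1% to 36.4% (25.3 ± 5.93, adjusted p = 0.00397). Its mean was 21.3% and 22.0% in the dTAG parental line at days 0 and 21, and 31.8% in the KO parental line against 36.6% in the KO clones. LOXL4, a cross-linking enzyme, rose from 16.5% to 29.8% (13.3 ± 3.53, adjusted p = 0.00906), a call lost without clone 8 day 21 replicate 1, clone 11 day 0 replicate 2 or clone 11 day 21 replicate 1 (adjusted p = 0.0551 to 0.0567). It was also lost with the pileup covariate (adjusted p = 0.0660), with joined gaps (0.0804), with only the compared groups (0.0724) and at equal length (0.516), and had the other sign after scaling (-8.01). SERPINH1, the collagen chaperone, kept to 4.85% to 6.98% over all 30 libraries and PPIB, a prolyl isomerase, to 3.16% to 6.18%. No tested gene of the list was called in the dTAG parental line at day 7, 14 or 21. The 5 fibroblast marker genes, none of them a collagen, are given as coverage, since expression was not measured. Between the KO parental line and the KO clones mean coverage was 0% and 10.1% for THY1, 2.22% and 11.3% for PDGFRB, 1.25% and 5.71% for FN1, 3.49% and 4.01% for PDGFRA and 27.7% and 27.0% for TWIST1.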

How the data were processed

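H3K27me3 CUT&Tag peak lists of 30 KMS-11 libraries were used; 10 other labelled libraries were not analysed here. The submitters' processing notes name hg38 and, with no roles, MACS3 3.0.2, Bowtie2, fastp 0.24.0, Picard, SAMtools, DESeq2 and deepTools 3.5.1; caller options and controls were not stated. In each deposited broadPeak list, 1 per library, the score is -log10 q times 10, the ratio column is the fold over the caller's background, and -log10 p and -log10 q are given per peak; the lowest -log10 q was 1.00 to 1.01. They were used to filter peaks and to solve the background pileup, which assumes a genome-wide background and a pseudocount of 1.

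Peaks were merged per library and coverage taken over RefSeq genes (GRCh38.p14). limma 3.58.1 (R 4.3.3) fitted 1 mean per group over all 30 libraries with a trend, 15 residual degrees of freedom and Benjamini-Hochberg adjustment over the 13977 genes with mean coverage of 1% to 99%. Clones entered with equal weight. The script was tested on simulated data. Named genes were those called in the KO clones or at day 21, the 5 most covered collagens, and up to 3 pathway genes by size of difference in each of these comparisons. Members and lists were chosen with earlier results of these data known. Alternatives were another size scaling, 3 stricter peak lists, the pileup covariate, joined gaps, an arcsine scale, no filter, fewer groups, the replicate block and each library left out. Coverage was computed in pandas 2.3.3 and numpy 2.4.6 under Python 3.11.15.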

Additional observations from a re-analysis of the deposited data

Results flagged for a closer look

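In 90 sets of 4 libraries (18 genes by 5 pairs of clones), 9 held a library far from the other 3 by Dixon's criterion, where chance flags about 1 in 20 sets. Low libraries were COL14A1 in dTAG clone 8 day 14 replicate 2 (1.14%), COL6A2 in clone 11 day 21 replicate 2 (39.4%), COL6A6 in clone 8 day 0 replicate 2 (0%) and COL8A2 in KO clone 12 replicate 1 (19.1%). High ones were COL1A1 in clone 8 day 14 replicate 1 (54.6%), COL28A1 in clone 8 day 0 replicate 2 (0.172%), COL6A5 in clone 11 day 14 replicate 1 (13.3%), and COL8A1 in clone 8 day 0 replicate 1 (0.149%) and day 21 replicate 1 (5.95%). The day 21 change differed between the dTAG clones and the dTAG parental line for COL6A6 (10.0 percentage points), COL28A1 (8.98), COL25A1 (5.43), COL21A1 (4.57) and COL5A2 (3.80), by limma's test of the difference.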

How the results depend on the processing

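Of 54 called gene results, the call and direction were kept in 54 without the filter, 54 with the replicate block, 53 on the arcsine scale, 47 with the pileup covariate, 42 with only the compared groups, 41 of 51 scaled by called length and 34 with gaps of up to 3 kb joined, and in 343 of 428 fits that left out 1 library, none of which reversed. Stricter lists kept few: 8 of 27 at equal length, 0 of 12 at a -log10 q of at least 5 and 0 of 1 at a fold of at least 4, with fewer collagen genes tested (22, 18 and 1). Without the filter, 11 and 17 of 41 collagen genes gained in the KO clones and at day 21, the added ones being COL19A1, COL4A4 and COL22A1 (KO) and COL19A1, COL4A4, COL4A3 and COL9A1 (day 21).

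For genes gained in the KO clones, at days 7, 14 and 21 and in the clones beyond the parental line (8, 11, 11, 13 and 5), both the q and the fold minimum gave 0 each, and equal length gave 0, 1, 3, 3 and 0. Over all genes the q minimum gave 0, 9, 5, 28 and 1 of 8312. The fold minimum gave 2, 25, 9, 23 and 0 of 4729, and equal length 251, 257, 460, 535 and 29 of 10483. Joined gaps gave 7 at day 7 and 0 beyond the parental line (1519 and 1 of 14263 genes), and only the compared groups gave 2 in the KO clones (872 of 14360 genes). Against 0 lost, scaling gave 15, 17, 17, 17 and 7, equal length 1, 5, 7, 8 and 1, and the pileup covariate 2, 1, 6, 6 and 1. At equal length the losses were among 22 tested collagen genes, beside 227, 276, 531, 533 and 25 of 10483 genes. That is a larger share of collagen genes than of all genes lost at days 7, 14 and 21. Leaving out 1 library gave 5 to 8 gained in the KO clones (5 without either KO parental library), 7 to 10 at day 7 (7 without clone 8 day 0 replicate 2), 8 to 12 at day 14, 10 to 13 at day 21 and 1 to 6 beyond the parental line (1 without dTAG parental day 0 replicate 1 or clone 8 day 21 replicate 1, and 2 without any other library but clone 8 day 21 replicate 2 and clone 11 day 21 replicate 2). The replicate block gave 11, 13, 13, 15 and 6 gained (3030, 3829, 3821, 4449 and 744 of 13977 genes). Over 105 pairs of groups the correlation of same-numbered deviations ran from 0.0335 to 0.558 (median 0.187) and passed 0.1 in 84. Every correlation was positive, so same-numbered libraries shared some deviation. Replicate 1 had the longer list in every group but clones 8 and 11 at day 7, as with 76.2 against 39.0 Mb at dTAG parental day 0. The main fit did not use the replicate numbers, so a shared deviation stayed in its spread.

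Signs turned in these differences (percentage points). Scaled by called length, KO clones: COL15A1 -0.117, COL1A1 -28.0, COL20A1 -24.8, COL27A1 -5.47, COL6A2 -20.7, COL7A1 -22.4, COL8A2 -4.99. Scaled, day 21: COL1A1 -47.7, COL20A1 -40.0, COL6A1 -26.0, COL6A2 -45.8, COL7A1 -32.4, LOXL4 -8.01. Pileup covariate, KO clones: COL1A1 -2.74, COL20A1 -0.461, COL6A2 -3.99, COL7A1 -4.00. Pileup covariate, day 21: COL1A1 -6.84, COL20A1 -4.21, COL6A1 -9.93, COL6A2 -15.1, COL7A1 -5.10. Equal length, KO clones: COL1A1 -5.72, COL27A1 -2.51, COL6A2 -3.52, COL7A1 -19.7, COL8A2 -7.94. Equal length, day 21: COL1A1 -16.0, COL20A1 -7.16, COL6A1 -11.3, COL6A2 -24.8, COL7A1 -9.71, COL8A2 -6.78, and day 7: COL8A2 -2.95. With the q minimum, KO clones: COL1A1 -19.9, COL20A1 -4.92, COL27A1 -2.72, COL6A2 -8.51, COL7A1 -18.4, COL8A2 -5.65. With the q minimum, day 21: COL1A1 -3.88, COL6A1 -8.73, COL6A2 -11.0, COL7A1 -8.51, COL8A2 -1.65; day 14: COL15A1 -0.406, COL27A1 -0.0950; day 7: COL27A1 -0.116, COL8A2 -0.458. With the fold minimum COLGALT2 had -1.04 in the KO clones, and with joined gaps COL6A1 had 3.15 and COL6A2 -2.83 there, and COL6A2 -10.5 at day 21. Leaving out 1 library gave KO differences of -13.7 to 19.1 for COL1A1, -5.01 to 15.9 for COL20A1, -12.7 to 8.56 for COL6A1 and -10.9 to 13.9 for COL7A1, and day 21 differences of -6.26 to 8.26 for COL6A2. The cause was not tested, except that scaling by construction lowers the longer lists. Depth limits the low genes, since a region not listed in a shallow library can carry the mark.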
